A study of Mus musculus with 4 samples.

Results

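The genes described here are 4 islet hormone genes (Ins1, Ins2, Iapp and Ppy), 2 transcription factors of the beta cell (Mafa and Nkx6-1) and the glucose transporter gene Slc2a2. They were taken by symbol and all 7 were among the 31054 features of the files. They were measured by single-cell RNA sequencing in intestinal epithelial cells sorted by flow cytometry from Bmi1-GFP mice, which carry a green fluorescent reporter of the Bmi1 gene. Each of 4 stages or treatments gave 1 library, and all mice had the Bmi1-GFP genotype. The embryonic libraries were of day 12.5 (E12.5) and day 17.5 (E17.5), and the others of adult mice, untreated or irradiated. Adult age, radiation dose, time since irradiation and how many animals were pooled are not given, nor is the sorting gate, so it is not stated whether GFP-positive cells were chosen. Embryonic gut was dissected under a microscope, as small intestine from the later stages. A cell was used if it showed 500 genes or more and no more than 20% of its counts came from mitochondrial genes, which left 15800 cells.

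Insulin is made by the beta cells of the pancreatic islets. Rodents have a pair of insulin genes, Ins1 and Ins2. Iapp encodes amylin, which beta cells store and release with insulin, and Ppy encodes pancreatic polypeptide, the product of a further islet cell type. Mafa and Nkx6-1 encode transcription factors of the beta cell, and Mafa switches on insulin genes as these cells mature. Nkx6-1 is made earlier too, in progenitors of the embryonic pancreas. Slc2a2 encodes GLUT2, which carries glucose into rodent beta cells and also serves the enterocytes of the gut lining. The gut has its own hormone cells, the enteroendocrine cells, which share Chga and Chgb, the chromogranins of secretory granules, with islet cells. The pancreas buds from the same endoderm as the duodenum and lies against it.

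On the GRCm38 mouse genome Ins1 (ENSMUSG00000035804) lies on chromosome 19 from 52264297 to 52265476, + strand, and Ins2 (ENSMUSG00000000215) on chromosome 7 from 142678656 to 142743381, - strand. Iapp (ENSMUSG00000041681) lies on chromosome 6 from 142298423 to 142303961, + strand, and Ppy (ENSMUSG00000017316) on chromosome 11 from 102099930 to 102101319, - strand. Mafa (ENSMUSG00000047591) lies on chromosome 15 from 75745490 to 75748228 and Nkx6-1 (ENSMUSG00000035187) on chromosome 5 from 101658139 to 101664996, both on the - strand. Slc2a2 (ENSMUSG00000027690) lies on chromosome 3 from 28697903 to 28731359, + strand. The coding sequences of Ins1 and Ins2 were identical at 302 of 327 aligned bases (92.4%), with a longest identical run of 56 bases, so the split of insulin reads between the pair is less certain than their sum.

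RefSeq promoter windows (GRCm38.p6) were matched for 5 of the 7 genes, namely Ins1, Iapp, Ppy, Nkx6-1 and Slc2a2. The 250 bases before the start are printed for Ins1 and Iapp, whose RNAs lay largely in the same cells, and for Ppy, whose RNA lay largely in others. Capitals mark matches on either strand to TAAT, the core bound by homeodomain factors such as Pdx1 and Nkx6-1, to CATCTG, an E box, and to TGCTGA, a core bound by Maf factors. On the opposite strand the first reads ATTA, the second reads CAGATG and the third reads TCAGCA, and in the Iapp window 2 matches to the first overlap.
Ins1, chr19:52264047-52264296, + strand: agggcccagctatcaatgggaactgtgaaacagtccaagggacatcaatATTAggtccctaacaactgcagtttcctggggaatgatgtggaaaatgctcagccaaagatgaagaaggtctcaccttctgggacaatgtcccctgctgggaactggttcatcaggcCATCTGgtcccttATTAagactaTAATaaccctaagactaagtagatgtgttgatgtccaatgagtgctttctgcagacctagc
Iapp, chr6:142298175-142298424, + strand: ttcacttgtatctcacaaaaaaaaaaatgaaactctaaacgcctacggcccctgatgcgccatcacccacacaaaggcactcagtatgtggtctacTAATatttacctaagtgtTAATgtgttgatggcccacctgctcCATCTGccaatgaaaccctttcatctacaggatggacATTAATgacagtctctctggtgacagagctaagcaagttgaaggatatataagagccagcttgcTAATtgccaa
Ppy, chr11:102101320-102101569, - strand: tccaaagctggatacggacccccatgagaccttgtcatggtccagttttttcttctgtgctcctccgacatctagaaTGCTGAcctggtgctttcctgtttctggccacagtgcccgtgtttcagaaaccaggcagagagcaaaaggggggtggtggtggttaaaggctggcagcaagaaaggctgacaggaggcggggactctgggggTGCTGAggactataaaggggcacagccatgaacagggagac
The Ins1 window held 3 matches to TAAT and 1 to CATCTG, and the Iapp window 5 and 1. The Ppy window held neither of these and 2 matches to TGCTGA, which the Ins1 and Iapp windows lacked. Nkx6-1 had 1 match to TGCTGA and Slc2a2 had 1 to TAAT. Of 32851 promoter windows of this length, 54.9% held TAAT, 14.4% CATCTG and 16.1% TGCTGA, and 9.62% held TAAT at least 4 times. A match describes the letters only.

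The kept cells numbered 4226 at E12.5 and 4602 at E17.5, 3788 from untreated and 3184 from irradiated adults, with median totals of 18637.5, 11499, 3699.5 and 8786 unique molecular identifiers (UMIs, 1 per captured RNA molecule). Any 2 libraries shared 1 to 7 cell barcodes, and no shared barcode belonged to an insulin-high cell as defined below. Levels are UMIs per 1000000 UMIs of the cells named (CPM) with exact Poisson 95% intervals, and intervals of shares of cells are exact Clopper-Pearson ones at 95%. Both describe counting error alone. A single library stands for each group, so replicate spread is unknown, no difference between libraries or cell sets was tested, and "higher" or "lower" states a measured ratio. The eGFP transcript of the reporter was at 22.9, 1.10, 1.72 and 12.5 CPM in the order above, and Bmi1 at 15.7, 10.3, 11.6 and 14.4 CPM.

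All 7 genes were highest at E17.5. The E12.5 library had Ins1 at 2.52 CPM (2.20 to 2.87) and the E17.5 library at 1673, while neither adult library had a UMI. For Ins2 the E12.5 level was 0.393 CPM (0.274 to 0.547) and the E17.5 level 3316, again with 0 UMIs in both adult libraries. No insulin RNA was thus detected in 3788 untreated or 3184 irradiated adult cells, where 3 cells would be 0.0792% and 0.0942% and the exact intervals of the share of cells with a UMI reach 0.0973% and 0.116%. Set against the level of 3 UMIs, 0.0940 CPM untreated and 0.0725 irradiated, Ins1 was at least 17798-fold and Ins2 at least 35275-fold lower in untreated adults than at E17.5.

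The other hormone genes parted from each other in the adult libraries. Iapp was at 2.65 CPM at E12.5 and 1309.8 at E17.5, and untreated adults had 382 CPM (376 to 389) and irradiated ones 679 (672 to 687). Iapp RNA was therefore abundant in both adult libraries, where insulin was not found. Ppy was at 0.0898 CPM at E12.5 (8 UMIs) and 98.7 at E17.5, and the adult libraries had 1 UMI (0.0313 CPM, untreated) and 3 UMIs (0.0725 CPM, irradiated). Outside E17.5 the Ppy intervals overlapped, and untreated adults lay 3149.5-fold below E17.5, with an interval from 565-fold to 124415-fold.

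Mafa was at 0.550 CPM at E12.5 (0.407 to 0.727) and 7.36 at E17.5 (6.76 to 7.99). Untreated adults had Mafa at 0.376 CPM (0.194 to 0.657) and irradiated ones at 0.217 (0.0994 to 0.413), intervals that overlap each other and that of E12.5. The 49 Mafa UMIs of E12.5 came from 49 cells, 1 in each, as did the 12 and 9 UMIs of the adult libraries, while a cell at E17.5 held up to 13. Nkx6-1 was at 5.09 CPM at E12.5 (4.63 to 5.58) and 15.6 at E17.5 (14.7 to 16.5), with 1 UMI in untreated adults (0.0313 CPM) and none in irradiated ones. Slc2a2 was at 2.25 CPM at E12.5 (1.95 to 2.58) and 13.3 at E17.5 (12.5 to 14.1). Untreated adults had 9.06 CPM of Slc2a2 (8.04 to 10.2) and irradiated ones 2.54 (2.08 to 3.07). These adult levels moved with the cell filter: with cells of at least 1000 genes and at most 10% mitochondrial UMIs, Slc2a2 was at 3.14 CPM untreated and 1.08 irradiated, and Iapp at 601 and 758. As a mean of each cell's CPM, Slc2a2 was at 4.09 and 1.61 CPM. For Slc2a2 the lowest pair, E12.5 and irradiated adult, had overlapping intervals.

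**Figure D1:**
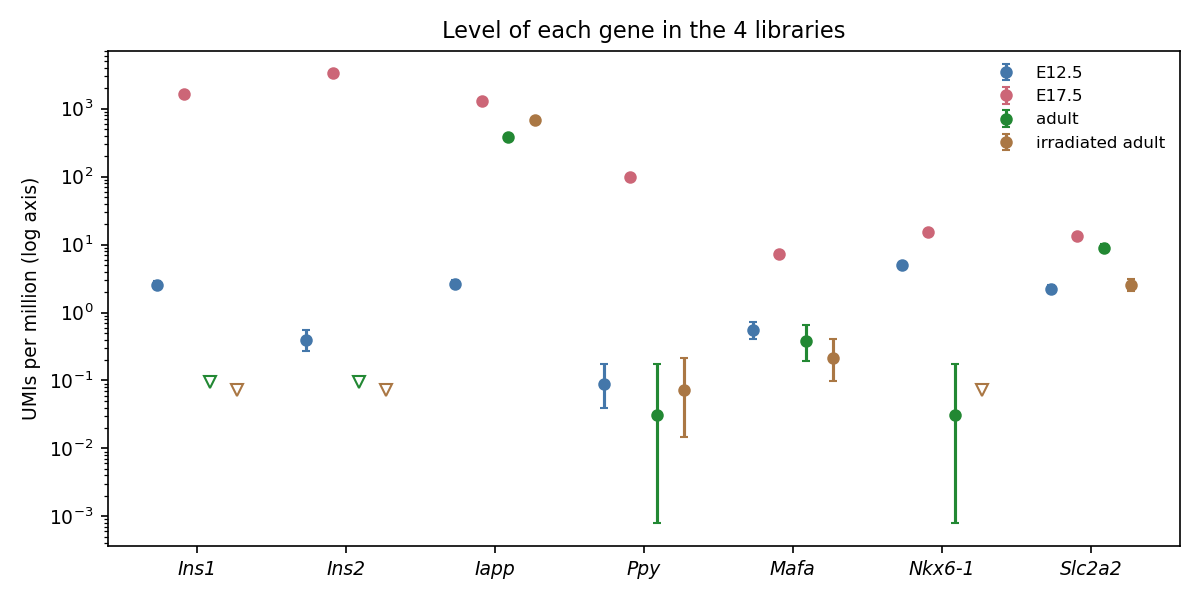
Level of each gene (UMIs per 1000000 UMIs of all kept cells, log axis) in the 4 libraries, 1 library per group; bars are exact Poisson 95% intervals and open triangles mark the level that 3 UMIs would give where 0 were counted. The E17.5 point is the highest for each gene, Ins1 and Ins2 have no adult UMI, and Iapp stays at 382 and 679 CPM in the adult libraries.

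As log2 ratios of CPM + 1, 6 of the 7 genes were at least 4-fold higher at E17.5 than at E12.5, against 5.46% of 17119 genes that had 10 UMIs or more in one of the libraries (2.91% were as much lower). The ratios were 11.22 for Ins2, 8.90 for Ins1, 8.49 for Iapp, 6.52 for Ppy, 2.43 for Mafa and 2.14 for Slc2a2, and that of Nkx6-1 was 1.45. From E17.5 to adult, 5 of the 7 were at least 4-fold lower, against 2.73% of 16611 genes (3.66% were as much higher), the exceptions being Iapp (-1.77) and Slc2a2 (-0.51). Between irradiated and untreated adult no gene of the 7 passed 4-fold, where 0.655% of 15266 genes were higher and 0.819% lower. Ins1 and Ins2 had 0 UMIs in both, Ppy had 1 untreated and 3 irradiated, and Nkx6-1 had 1 and 0. With fewer than 10 UMIs these genes could not pass, so only Iapp, Mafa and Slc2a2 were compared. Iapp was 1.78-fold higher after irradiation (1.74 to 1.82) and Slc2a2 3.57-fold lower (2.85 to 4.51). The adult libraries also differed in makeup: cells with Chga and Chgb UMIs of at least 0.1% of their total were 69.0% of untreated and 89.7% of irradiated adult cells, and the part of this in the Iapp and Slc2a2 differences was not tested. The E17.5 library differed in makeup from the rest too. It alone held insulin-high cells (131, defined below) and cells past a threshold for acinar genes (548, 11.9%). The part of this in the stage ratios was not tested.

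At E17.5 insulin RNA was confined almost wholly to a small set of cells. Cells with Ins1 and Ins2 UMIs of at least 2% of their total, called insulin-high here, numbered 131 of 4602 (2.85%, interval 2.39 to 3.37), and there were none in the other 3 libraries. They held 99.2% of the Ins1 and 99.2% of the Ins2 UMIs of the library. Insulin made up between 2.35% and 50.3% of the UMIs of such a cell, with a median of 21.9%. Few cells lay near the threshold: 8 had 1 to 2% and 3 had 2 to 3%. The nearest cells below it had 1.95% and 1.88% of totals of only 718 and 1063 UMIs, and the nearest above it had 2.35% of 15370 UMIs. Chromogranin passed the endocrine threshold in 116 of the 131 cells, and the median total was 12217 UMIs against 7673 in the 1539 other cells past that threshold.

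**Figure D2:**
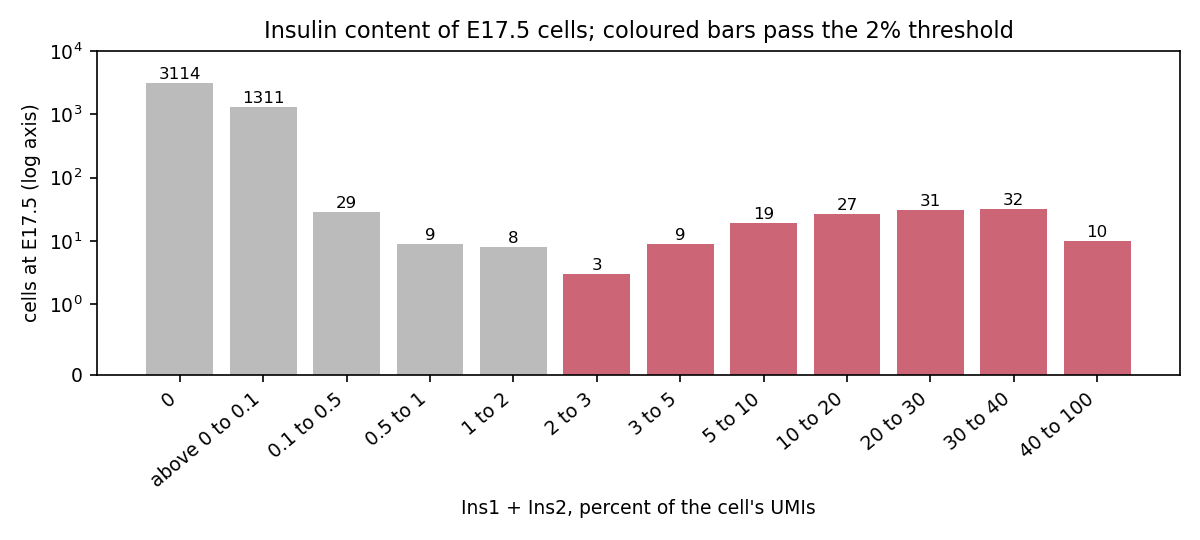
Number of E17.5 cells (log axis above 1, linear to 0) by the percent of their UMIs from Ins1 and Ins2; the bins are unequal and coloured bars pass the 2% threshold. Of 4602 cells, 3114 had no insulin UMI and 1311 had up to 0.1%, while 131 passed the threshold.

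Low insulin counts were widespread outside this set. An Ins2 UMI was found in 1156 E17.5 cells, of which 812 had exactly 1. The share with an Ins2 UMI was 10.3% in 107 cells past a threshold for mesenchymal and muscle genes, which should make no insulin (median total 6624 UMIs). With cells thinned to 2000 UMIs it was 2.86% there, 2.85% in cells past an enterocyte threshold, 3.92% in the remaining cells, 4.15% in cells past an acinar threshold and 7.06% in other endocrine cells. Summed Ins2 was at 13.9 CPM in the mesenchymal set (6.93 to 24.8), 12.6 in the enterocyte set and 13.6 in the remaining cells, so an insulin UMI in those cells did not exceed the level of cells that should lack it. Other endocrine cells, at 78.9 CPM (74.4 to 83.6), lay above this background as a sum. Of these 1539 cells 309 had an Ins2 UMI, and 163 of the 1143 UMIs lay in the highest cell. The set includes cells just under the insulin threshold, with up to 1.95% insulin. Acinar cells, at 25.7 CPM (22.2 to 29.7), had an interval that overlapped the mesenchymal one.

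The balance of the insulin genes was near 1 Ins1 to 2 Ins2 in the whole set and varied widely between cells. Ins1 supplied 33.5% of the insulin UMIs of the insulin-high cells (33.4 to 33.7) and 33.6% in the other endocrine cells (31.4 to 35.9). A like share was found in sets at the background level, with 32.4% in the enterocyte set and 32.2% in the remaining cells. The acinar set had 24.7% and the mesenchymal set 38.9%. Per insulin-high cell the Ins1 share ran from 0 to 100%, with quartiles of 18.4%, 31.9% and 42.8%. In 21 of the 131 cells Ins1 was the larger part. Those 21 cells had Iapp, Mafa, Nkx6-1 and Slc2a2 at 72274, 513, 466 and 471 per 1000000 non-insulin UMIs, and the other 110 at 56726, 416, 461 and 388. The intervals overlapped for the 3 genes other than Iapp. The Ins1 share was lower in cells with little insulin: it was 24.1% of insulin UMIs where insulin was 2 to 10% of the cell and 32.8% where it was 30% or more, with the highest value, 39.3%, at 20 to 30%. At E12.5 the order was the reverse, with Ins1 at 86.5% of 259 insulin UMIs, a figure that rests on 3 cells described below.

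Among the 5 genes the threshold did not use, 4 were at least 2-fold higher in insulin-high cells than in other endocrine cells of E17.5, against 5.27% of 13748 genes tested. Iapp was at 45094 CPM in insulin-high cells and 1656 in the others (27.2-fold, 26.8 to 27.6). It was detected in each of the 131 cells, at 0.798% to 14.7% of the cell's UMIs. Mafa was at 328 CPM against 0.759 (433-fold, 240 to 872), and was found in 107 of 131 cells and 9 of 1539. Slc2a2 was at 306 CPM against 2.97 (103-fold, 75.4 to 144), in 105 cells against 24. Nkx6-1 was at 352 CPM against 29.1 (12.1-fold, 10.6 to 13.8), in 125 cells against 150.

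Ppy was the exception, at 342 CPM in insulin-high and 332 in other endocrine cells, a ratio of 1.03 (0.942 to 1.13). Its ratio depended on which cells were compared. With the insulin threshold at 5% Ppy was at 149 against 333 CPM, and without the endocrine cells led by Pyy or with no leading hormone, a comparison added after the data were seen, it was at 342 against 43.4 CPM. In the mesenchymal set Mafa and Nkx6-1 had 0 UMIs (3 UMIs would be 3.79 CPM), Slc2a2 was at 1.26 CPM, Ppy at 2.52 and Iapp at 11.4. Of all E17.5 UMIs the insulin-high cells held 93.1% for Mafa, 71.8% for Iapp, 48.1% for Slc2a2, 47.1% for Nkx6-1 and 7.23% for Ppy.

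**Figure D3:**
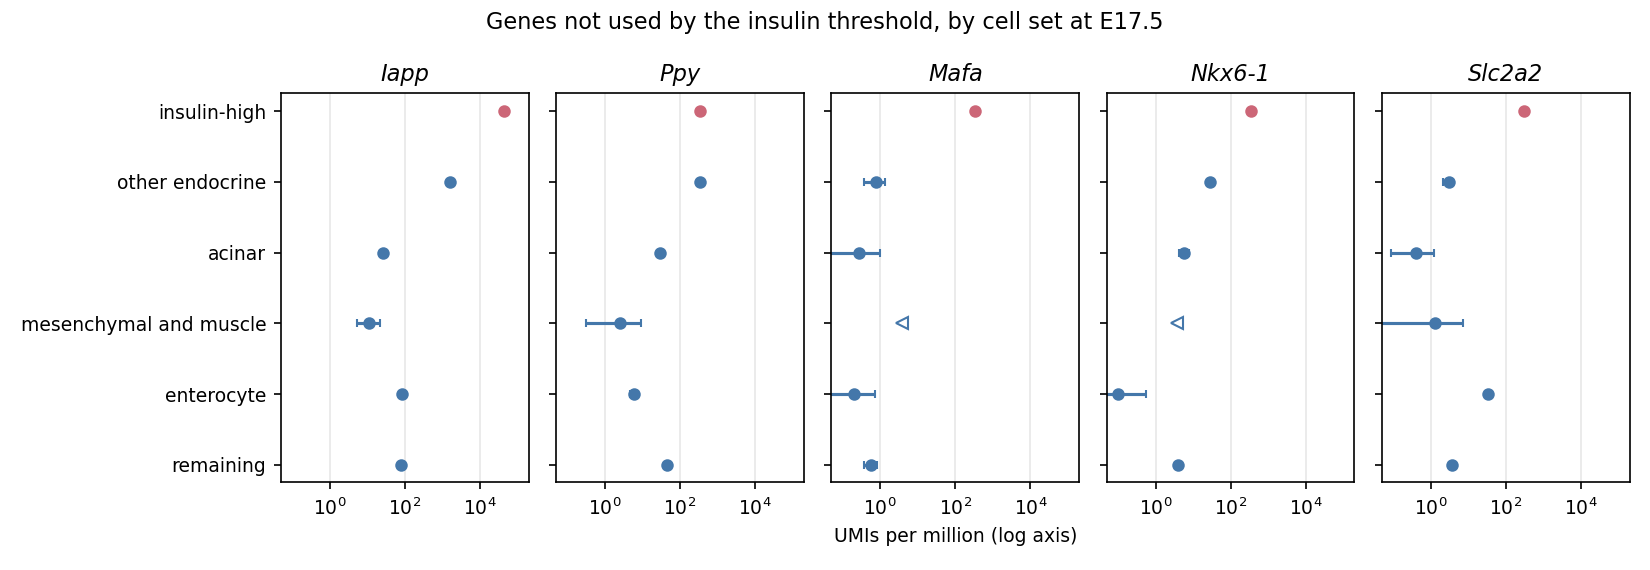
Level (UMIs per 1000000, log axis) of the 5 genes not used by the insulin threshold in 6 sets of E17.5 cells; bars are exact Poisson 95% intervals, cut at the axis where they reach 0, and open triangles mark the level of 3 UMIs where 0 were counted. Insulin-high cells are highest for Iapp, Mafa, Nkx6-1 and Slc2a2, while Ppy is at 342 CPM in them and 332 in other endocrine cells. Of the Ppy UMIs of insulin-high cells, 52.3% lay in the highest cell.

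Of 17 islet transcription factors beyond the 2 members, 3 were at least 2-fold higher and 3 lower in insulin-high cells, with a median log2 ratio of -0.13 beside -0.35 over all genes tested. At least 2-fold lower were 22.9% of all genes. Pdx1, the regulator of pancreas formation and of insulin transcription, was at 243 against 54.3 CPM. Mnx1, a homeodomain factor needed in beta cells, was at 48.6 against 18.9 CPM. Pax4 (11.2 against 79.6), Hnf4a (6.23 against 67.8) and Neurog3 (7.48 against 18.7), the switch of endocrine precursors, were the 3 lower. The other 11 factors lay within 2-fold, though not all at the same level. Neurod1 was at 252 against 395 CPM (ratio 0.637, 0.575 to 0.705) and Rfx6 at 24.3 against 40.6 (0.599, 0.422 to 0.829), while Pax6 was at 209 against 164 (1.28, 1.14 to 1.43). The ratio intervals of Isl1, at 325 against 355 CPM, and Nkx2-2, at 97.8 against 85.0, included 1. Insulin stayed in these totals, at a median of 21.9% of an insulin-high cell's UMIs, which lowers the CPM of other genes there. Ratios without insulin in the totals are not given for the lists. Whether an interval near 1 includes it, as for Isl1, Nkx2-2 and Rfx6, can depend on this choice. So can whether a gene passes 2-fold, as for Neurog3. It had 12 UMIs in insulin-high cells, with a UMI in 3.05% of them and 3.31% of other endocrine cells.

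Of 17 genes tested for glucose sensing and insulin granules, 6 were at least 2-fold higher and 1 lower, with a median log2 ratio of 0.42. The lists were chosen with earlier results of these data known, so such counts are a description only. Slc30a8, the zinc transporter of insulin granules, was at 483 against 10.6 CPM. G6pc2, an islet glucose-6-phosphatase, was at 82.9 against 0.414, and Ero1lb, an oxidase that helps proinsulin fold, at 271 against 12.9. The prohormone convertase Pcsk2 was at 1001 against 108 CPM and was detected in each of the 131 cells, while Pcsk1 was at 373 against 264. Sytl4, a granule docking protein, was at 263 against 2.97 CPM, and Npy, neuropeptide Y, at 866 against 0.276, with a UMI in 42.7% and 0.260% of cells. Ucn3, a marker of mature beta cells that gut endocrine cells also held here, was lower at 16.8 against 77.6 CPM. The potassium channel parts Abcc8 and Kcnj11 were at 277 against 166 CPM and 30.5 against 22.6.

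The genes of gut cells were lower in the insulin-high set. Of 9 intestinal identity genes all 9 were at least 2-fold lower (median log2 ratio -3.81), with Cdx2, the factor that specifies intestine, at 11.8 against 179 CPM and Cdx1 at 0.623 against 52.8. In the mesenchymal set Cdx2 was at 5.05 CPM (1.38 to 12.9), an interval that overlaps that of the insulin-high cells (7.13 to 18.5). Gut hormone genes were lower for 7 of 8 (median -4.92), the exception being Pyy at 5237 against 8189 CPM. Of 8 other islet cell genes 6 were lower and none higher (median -2.89), including Gcg, the glucagon gene of alpha cells, at 113 against 6923 CPM. The other endocrine cells included cells led by Gcg, Sst or Ghrl, so these ratios do not compare islet cell types. Irx1 counted as lower on 0 against 15 UMIs. The labelled cell type, intestinal epithelium, was thus not matched by these cells in Cdx1, Cdx2 and the other 7 intestinal genes, while Epcam was present in 97.7% of them.

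The remaining lists marked other cells. Of 5 epithelial genes 3 were lower (median -1.52), of 10 enterocyte genes 9 were lower (median -3.23) and of 15 G2/M genes, which mark dividing cells, all 15 were lower (median -1.83). Insulin in the totals lowers these ratios, and 22.9% of all genes tested were at least 2-fold lower. Cdk1 (16.2 against 42.7 CPM) and Plk1 (6 against 143 UMIs) lay not far past 2-fold. Whether all 15 genes pass can depend on the totals, and so can the acinar count below. At equal depth 1.54% of insulin-high cells (2 of 130) and 5.13% of other endocrine cells had at least 3 UMIs over the G2/M list, with intervals from 0.187 to 5.45% and 4.07 to 6.37% that overlap. Of 15 acinar genes tested 1 was higher and 6 lower (median -0.61), and the whole acinar list summed to 0.155% of the UMIs of insulin-high cells (0 to 9.43% per cell) and 0.375% in the other endocrine cells (0 to 21.2%), with Pnlip at 0 UMIs in both sets and Cela2a at 0 and 19 UMIs. Of 7 pancreatic progenitor genes tested 2 were higher, Pdx1 and Mnx1, and 1 was lower (median -0.01). Mesenchymal and muscle genes summed to 0.00262% and 0.00382% of UMIs, with 1 of 7 lower (median -0.63), and of 3 blood, vessel and nerve genes tested none passed 2-fold (median -0.72). Of 4 tuft cell genes tested 1 was higher and 1 lower (median 0.04). The higher one was Trpm5, a cation channel of tuft cells that beta cells are known to use too, with 48 UMIs in 26.7% of insulin-high cells and 0 in other endocrine cells, at least 145-fold higher when 3 UMIs are set in place of 0. The reporter transcript eGFP was at 2.49 CPM (4 UMIs) against 2.14, and Bmi1 at 11.2 against 18.7, so neither passed 2-fold (median -0.27).

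By ratio alone, the 10 genes highest in insulin-high over other endocrine cells were Ins2, Ins1, Npy, Mafa, Arhgap36, Slc2a2, Sytl4, Ppp1r1a, Cntfr and Slc30a8. Iapp, Nkx6-1 and Ppy were not among them. Ppp1r1a, an inhibitor of protein phosphatase, was at 692 against 10.8 CPM, Arhgap36 at 156 against 0.621 and Cntfr, a cytokine receptor part, at 125 against 1.59. The 10 lowest were Nts, Gip, Fcgbp, Scin, Gcg, Serpina1c, Afp, Serpina1a, Asic5 and Reg4. Fcgbp, Scin and Asic5 had 0 UMIs in insulin-high cells and were at least 52.5-fold, 39.3-fold and 27.7-fold lower.

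Within the 131 cells the levels differed with insulin content, more for some members than for others. Levels here are per 1000000 UMIs after insulin is left out, in 31, 27, 31 and 42 cells with insulin at 2 to 10%, 10 to 20%, 20 to 30% and 30% or more of their UMIs. Mafa was at 174, 365, 569 and 546 in that order, and Slc2a2 at 121, 249, 566 and 567. Both were thus higher in cells above 20% insulin than below 10%, without overlap of the intervals, and level above 20%. Iapp was at 37494, 48117, 67265 and 75259. Nkx6-1 was at 344, 453, 522 and 504. Its interval below 10% insulin (279 to 420) also lay under those above 20% (446 to 608 and 435 to 580), with a smaller ratio than for Mafa and Slc2a2. Slc30a8 was at 330, 494, 754 and 845 and Npy at 156, 390, 1639 and 1909.5.

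Pyy had the opposite order, at 14660.0, 8176, 3839 and 2814 per 1000000. Pdx1 was at 401, 340.5, 257 and 296, and its intervals in the lowest (330 to 482) and highest group (244 to 356) overlapped. The Pdx1 interval at 20 to 30% insulin (204 to 318) lay under that of the lowest group. Ppy was at 1465, 99.7, 84.5 and 223, and 287 of the 413 Ppy UMIs of the lowest group came from 1 cell. Median totals also differed along this order, at 7825, 8570, 13415 and 14506 UMIs, and their part in the order was not tested.

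**Figure D4:**
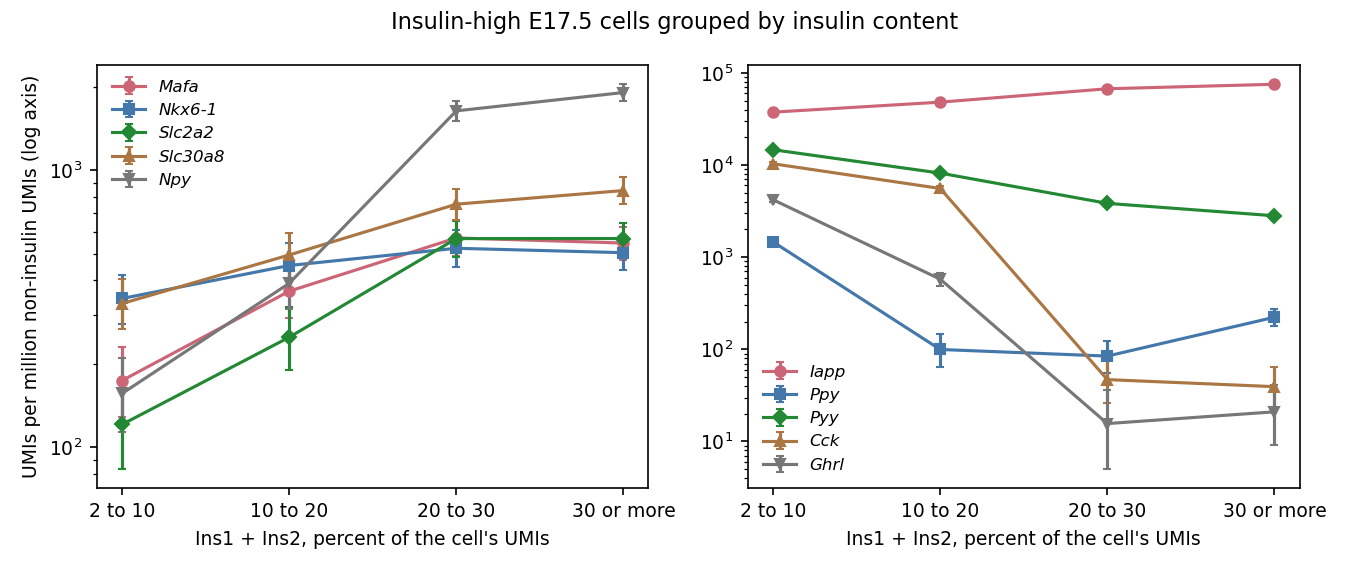
Levels per 1000000 non-insulin UMIs (log axis) in the insulin-high E17.5 cells, grouped by the percent of their UMIs from insulin (31, 27, 31 and 42 cells); bars are exact Poisson 95% intervals. Mafa and Slc2a2 are at 174 and 121 in the lowest group and 546 and 567 in the highest, while Pyy is at 14660.0 in the lowest group and 2814 in the highest.

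After Iapp, which all 131 insulin-high cells held, Pyy was the hormone RNA most often found beside insulin. Pyy, peptide YY, which gut L cells and embryonic islet cells make, had a UMI in 84.0% of insulin-high cells (110 of 131), against 9.35% of the mesenchymal set, which should lack it (median totals 12217 and 6624 UMIs). At 2000 UMIs a cell these shares were 66.9% and 4.76%. It reached 1% of UMIs in 19 insulin-high cells. In 5 cells there was more Pyy than insulin. Of the 131 cells 21 had at least 1% of UMIs from a hormone gene other than insulin, Iapp and Npy, and 7 had this for 2 or more: Sct passed it in 3 cells and Cck, Sst, Ghrl and Ppy in 2 each. For several of these 1 cell held most of the UMIs, with 67.5% of Cck, 73.1% of Ghrl and 64.4% of Sct in the highest cell, so their summed levels in the set describe that cell. Doublets scored by Scrublet took out 8 of the 131 cells.

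Ppy RNA was concentrated in few E17.5 cells, most of them outside the insulin-high set. The 10 cells with most Ppy held 50.9% of its 7593 UMIs. The 31 cells with Ppy at 0.5% of UMIs or more held 83.6%, and of these 22 were other endocrine cells, 7 fell in the remaining cells and 2 were insulin-high. Pyy was the leading hormone gene in 26 of the 31, and over all 31 cells Ppy was at 21803 and Pyy at 143033 CPM. The 22 endocrine cells had Ins2 at 634 CPM, Iapp at 17824 and Cdx2 at 34.9. The 109 other endocrine cells led by Pyy had Ppy at 5268 CPM (5110.2 to 5429), against 682 in cells led by Sst, 77.0 in those led by Ghrl, 73.8 in those led by Gcg and 0 to 5.29 in those led by Cck, Gip, Nts, Sct or Tac1.

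The same Pyy-led cells shared more with the insulin-high cells. Nkx6-1 was at 236 CPM in them (204 to 272), against 0 to 19.4 in cells led by the 8 other hormones. Cdx2 was at 29.96 CPM (19.2 to 44.6), against 140 to 263. The 68 other endocrine cells with no leading hormone had Nkx6-1 at 531 CPM (453 to 618), Pdx1 at 304 and Ins2 at 1068 CPM with Cdx2 at 12.8. Slc2a2 was at 27.5 CPM in the Pyy-led cells and 3.20 in those with no leading hormone, and Mafa at 3.75 and 9.60 CPM, so neither set reached the level of the insulin-high cells (306 and 328). These sets are ranges cut from hormone counts and are not cell types.

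Iapp was the member with the widest spread over hormone cells. At E17.5, 323 cells had Iapp at 0.5% of UMIs or more: 131 were the insulin-high cells and 166 were other endocrine cells, of which 65 were led by Sst, 45 by Pyy and 42 by Ghrl. By leading hormone Iapp was at 12658 CPM in Pyy-led cells (12413 to 12907), 11461 in Sst-led, 3155 in Ghrl-led and 1397 in Gcg-led cells, and from 10.5 to 299 CPM in cells led by the other 5 hormones, with 2114 in cells that had no leading hormone. Sst, somatostatin, is made by D cells of islet and gut.

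In the adult libraries Iapp kept to the Sst-led cells among the sets described. The 136 adult Sst-led cells had Iapp at 10416 CPM (10226 to 10608), and 92.6% of them had an Iapp UMI. The 227 irradiated adult ones had it at 9601 CPM (9485 to 9718) and 94.7% had a UMI. Cells led by other hormones had Iapp at 6.34 to 27.0 CPM in untreated adults and 9.35 to 163 in irradiated ones, with Tac1-led cells the highest of the latter. All 66 adult and all 143 irradiated adult cells with Iapp at 0.5% of UMIs or more had Sst as their leading hormone, and they held 87.4% and 88.1% of Iapp UMIs. Sst-led cells were 136 of 2612 endocrine cells in untreated and 227 of 2855 in irradiated adults.

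**Figure D5:**
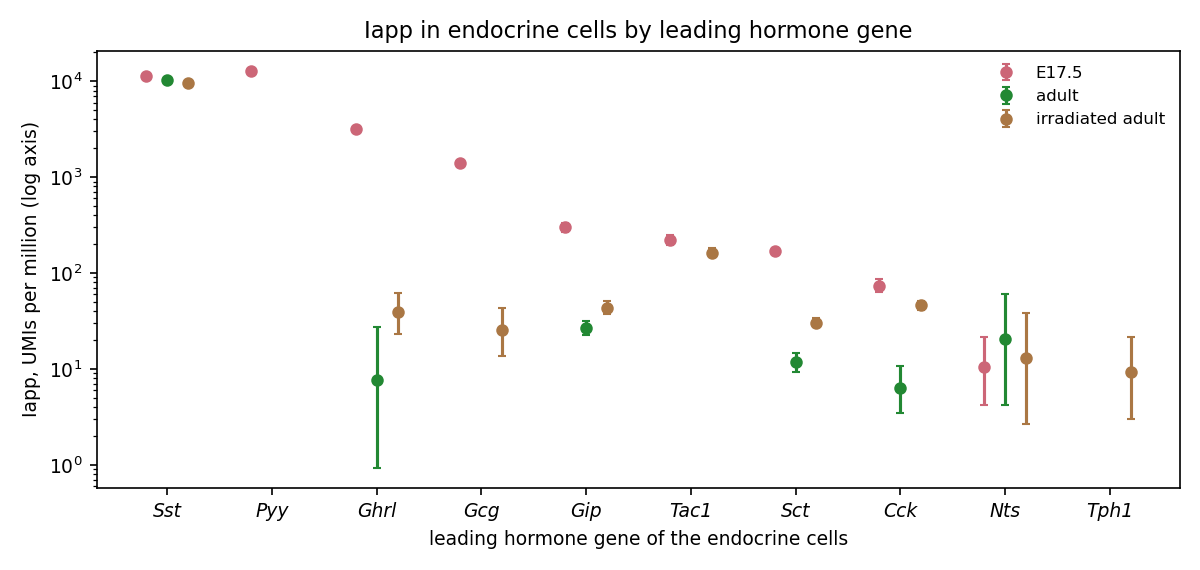
Iapp level (UMIs per 1000000, log axis) in endocrine cells of 3 libraries by leading hormone gene; bars are exact Poisson 95% intervals, sets under 20 cells are left out and E12.5 has no such set. Sst-led cells are at 11461, 10416 and 9601 CPM in the 3 libraries, and Pyy-led cells, at 12658 CPM, number 20 or more at E17.5 only.

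Slc2a2 was also found in the enterocyte set, as known for the gut. At E17.5 cells with at least 1% of UMIs from enterocyte genes had Slc2a2 at 32.8 CPM (29.3 to 36.5), and held 32.3% of its UMIs. The same set had 29.1 CPM in untreated adults (24.6 to 34.3) and 46.0 in irradiated ones (33.4 to 61.8), and these intervals overlap. Few cells carried the adult values, with a Slc2a2 UMI in 26 of 675 untreated (3.85%) and 8 of 87 irradiated cells (9.20%), against 36.8% at E17.5. Depth differed, with median totals of 5021, 7265 and 23275 UMIs in that order. At 2000 UMIs a cell the shares were 1.67% (0.836 to 2.97), 2.38% (0.290 to 8.34) and 7.51% (5.09 to 10.6). The irradiated interval overlapped that of E17.5. This set was 17.8% of adult and 2.73% of irradiated adult cells, beside the 3.57-fold lower Slc2a2 of the whole irradiated library. Endocrine cells had Slc2a2 at 8.60 CPM in untreated adults (7.23 to 10.2), 1.92 in irradiated ones (1.45 to 2.49) and 2.97 at E17.5. These values came from 37 of 2612, 30 of 2855 and 24 of 1539 cells, and 33 of the 139 untreated UMIs lay in the highest cell. Of the 289 adult Slc2a2 UMIs, 49.1% came from 10 cells. Nkx6-1 and Mafa had no such set: in the enterocyte set of E17.5 they had 1 and 2 UMIs.

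At E12.5 insulin RNA was found in 9 of 4226 cells, of which 6 had a lone UMI. The other 3 cells were endocrine by chromogranin and had 3 Ins1 and 27 Ins2 UMIs, 76 and 6, and 141 and 0. Insulin was 0.220%, 0.556% and 1.48% of their UMIs, so none reached the 2% threshold. The cell with most Ins2 had 89 Iapp and 0 Gcg UMIs, while the other 2 had 490 and 157 Gcg and 59 and 159 Ghrl UMIs. Ins1 was thus the main insulin RNA in the 2 cells that also held glucagon and ghrelin RNA.

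The 13 endocrine cells of E12.5, which include these 3, had Iapp at 1290.05 CPM (9 cells), Nkx6-1 at 162 CPM (8 cells), Gcg at 10016 and Pyy at 14224 CPM. Slc2a2 and Mafa had 1 UMI each. Cdx2 was at 6.75 CPM (1 UMI) against 305 in the other E12.5 cells. The eGFP reporter had 0 UMIs in these 13 cells, for which 3 UMIs would be 20.3 CPM, against 23.0 elsewhere, so a difference was not detectable at this depth.

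Nkx6-1 at E12.5 lay mostly outside endocrine cells: 94.7% of its 453 UMIs were in the other cells. In the 141 cells with a Nkx6-1 UMI, Pdx1 was at 137 CPM against 6.59 in cells without, Ptf1a, a factor of pancreatic progenitors and acinar cells, at 43.2 against 0.270, and Cpa1, a carboxypeptidase of the tips of the pancreatic buds, at 462 against 2.53. Sox9 was at 365 against 164 CPM and Onecut1 at 18.7 against 3.19, while Mnx1 was at 12.5 against 11.3. Slc2a2 was at 34.9 against 0.809 CPM, and 131 of its 200 E12.5 UMIs were in these cells. Cdx2 was at 132 against 312 CPM. At equal depth a Nkx6-1 UMI was found in 8.97% of cells with a Pdx1 UMI (7 of 78, 3.68 to 17.6) and 0.867% of those without (31 of 3577, 0.590 to 1.23), and without thinning in 28.5% and 0.983%. The reporter transcript was at 21.3 CPM in cells with a Nkx6-1 UMI and 23.0 in those without, with overlapping intervals.

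Across the 4602 E17.5 cells, which share 1 library and differ in depth, the genes most like each member by Pearson r of log2(1 + UMIs per 10000) were as follows. For Ins1 they were Ins2 (r = 0.868), Ppp1r1a (0.780) and Mafa (0.772), and for Ins2 after Ins1 they were Ppp1r1a (0.804) and Sytl4 (0.774). For Mafa they were Ins1, Ins2 (0.770) and Ppp1r1a (0.733), and for Slc2a2 they were Ins1 (0.607), Ins2 (0.583) and Mafa (0.570). Iapp, Nkx6-1 and Ppy each had Pcsk2 as the most alike gene, at 0.717, 0.597 and 0.486, and for Ppy the third was Pyy (0.445). The partners changed with the library. At E12.5 the genes most like Nkx6-1 were Gc (0.596), Rhov (0.531) and Cpa1 (0.518) over 4226 cells, and those most like Slc2a2 were Spp1 (0.461), Gc (0.445) and Fxyd2 (0.410). In the adult Iapp was most like Hhex (0.752), the factor of D cells, Asic5 (0.745) and Sst (0.686) over 3788 cells, and in the irradiated adult most like Sst (0.795), Hhex (0.783) and Asic5 (0.740) over 3184. Adult Slc2a2 was most like Lct (0.589), the lactase gene of enterocytes, Cyp2b10 (0.562) and Cyp3a25 (0.542).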

How the data were processed

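The authors deposited, per library, a matrix of raw UMI counts per gene and cell barcode, made with Cell Ranger 3.1.0 on mm10 per the submitters' processing notes; the kit was the 10x Chromium 3' kit (version 3) per the labels' protocols. The deposited counts were whole and not normalized. How barcodes were chosen is not given in the sources used here.

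The genes and lists were chosen with earlier results of these data known. Cells passed at 500 genes and 20% mitochondrial UMIs. Putative doublets stayed in, and their removal was an alternative (Scrublet in scanpy 1.11.5, 0.8% per 1000 barcodes). Each cell joined the first set it passed: insulin-high (2%), other endocrine (Chga and Chgb, 0.1%), acinar (3%), mesenchymal and muscle (2%), enterocyte (1%), tuft (0.3%), remaining. The leading hormone is the gut hormone gene, Gcg, Sst or Ghrl with most UMIs, at least 5. Sets under 20 cells were not described. A gene counts as past a fold by log2 of CPM + 1, 4-fold between libraries and 2-fold between sets, with at least 10 UMIs. Ratio intervals are exact conditional binomial. A few genes of the lists are counted but not reported here by name. Named genes are the members, 14 lists (140 genes), the 3 most alike genes per member, and the 10 highest and 10 lowest ratios with at least 200 UMIs and a UMI in 10% of cells of the higher set. Gene positions came from GENCODE M21 by ID (30934 of 31054 matched). The ratio step was checked on simulated counts. Alternatives changed the cell filter, doublets, each threshold, the depth of thinning, the pseudocount, the totals (edgeR TMM factors, the mean over cells, totals without insulin) and the cells compared. Computation ran on python 3.11.15 with scipy 1.17.1, numpy 2.4.6, matplotlib 3.10.9 and pandas 2.3.3, and edgeR 4.0.16 in R 4.3.3.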

Additional observations from a re-analysis of the deposited data

How the results depend on the processing

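No paired analysis was possible because every group has a single library and the labels pair none of them, and for the same reason no library could be left out. Of the recomputed values that answer a comparison, 52 stayed within the counting interval, or within 1.5 times for counts of genes, and 7 did not. With a pseudocount of 10 CPM, 3 genes rather than 5 were 4-fold lower in the adult than at E17.5. Without thinning, 28.5% of E12.5 cells with a Pdx1 UMI had a Nkx6-1 UMI. With marker thresholds at 2 times their value, Slc2a2 in the enterocyte set was at 47.2 CPM at E17.5, 42.9 in untreated adults and 83.0 in irradiated ones. With the endocrine threshold at 0.5%, chosen after seeing the data, Iapp in Sst-led cells was at 9038 CPM at E17.5 and 6456 in irradiated adults, and untreated adults had fewer than 20 such cells and gives no value. The cause of these shifts was not tested. The share of insulin-high cells ranged from 2.59% to 3.02%, and 4 of 5 genes stayed 2-fold higher in them in every alternative but 2. In those, the endocrine threshold at 0.5% and the comparison without Pyy-led cells and cells with no leading hormone, Ppy passed as well. Of the recomputed values of single genes, 134 stayed within the counting interval, 82 did not, and 0 that had passed their fold changed sign. Between E17.5 and E12.5 the lowest log2 ratios among the alternatives were 0.718 for Mafa and 0.926 for Slc2a2, both under 4-fold. The log2 ratio of Ppy between insulin-high and other endocrine cells ran from -1.16 to 2.95, that of Mafa from 4.98 to 8.58, of Slc2a2 from 4.61 to 6.94, of Nkx6-1 from 2.93 to 5.88 and of Iapp from 4.43 to 5.55. Counts of a few UMIs limit Ppy and Nkx6-1 in the adult libraries.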
